A study of Mus musculus with 3 samples.

Results

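Fcnb Camp cells are neutrophil precursors of mouse bone marrow that carry the transcripts of ficolin-B (Fcnb), a pattern recognition protein of granules, and of the cathelicidin antimicrobial peptide (Camp). A cell was taken when it had at least 200 genes, at most 5% mitochondrial UMIs (unique molecular identifiers, 1 per captured RNA molecule) and at least 10 UMIs of each of the 2 genes. Of 31292 cells that passed the limits on genes and mitochondrial UMIs, 627 met the rule. They were 200 of 10674 cells in the Control library, 201 of 10345 in the IR library and 226 of 10273 in the IR+CBD library. Fcnb and Camp chose the cells, so their values are given as a description only.

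The study asked how cannabidiol (CBD) acts on bone marrow nucleated cells (BMNCs) after acute irradiation. Each group was 1 droplet library, prepared at 14 days post-irradiation (DPI) from the pooled BMNCs of 3 C57BL/6 mice, which the methods describe as male and for which no age is given. Control mice were not irradiated. IR mice received 6 Gy of gamma rays with the solvent, soybean oil with DMSO. Per the methods, IR+CBD mice were irradiated likewise and had CBD in that solvent injected into the peritoneum before and after irradiation, while their label gives only the CBD treatment. Femur cells were sorted as Lin-Kit+, Lin-Kit- and Lin+ and remixed at 5, 4 and 1 parts, which means that shares of cells describe the remixed sample rather than marrow. With 1 library per group there was no test between groups: the values of the libraries are set side by side, and treatment, pool of mice and library cannot be told apart.

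Neutrophils mature in the marrow from Elane and Mpo expressing promyelocytes, which load primary granules with serine proteases and myeloperoxidase, through dividing myelocytes, which load secondary granules with lactoferrin, lipocalin-2 and cathelicidin, to metamyelocytes and band cells that no longer divide. The switch from primary to secondary granule genes requires the transcription factor C/EBP-epsilon. The stage at which secondary granule genes are on and division has not yet ended is commonly called the preneutrophil or myelocyte.

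All intervals are 95% intervals and cover counting error only: Clopper-Pearson for shares, Poisson for CPM (UMIs of a gene per 1000000 UMIs of the summed cells) and exact conditional binomial for ratios. The libraries held 199383228, 206932522 and 177806843 UMIs in 12200, 11951 and 11884 barcodes (Control, IR and IR+CBD, in this order here and wherever 3 values are given). Fcnb Camp cells had median depths of 25052, 20784 and 18159.5 UMIs, so the Control cells were the deepest, and their sums were 5578146, 4442270 and 4574390 UMIs. Doublet prediction marked 36, 26 and 26 of them (18.0%, 12.9% and 11.5%), against 8.53%, 8.27% and 8.22% of all kept cells. At least 10 UMIs of defining genes of B cells, erythroid cells, monocytes, basophils and mast cells or MHC class II cells were found in 30, 15 and 18 Fcnb Camp cells, and these had median depths of 40259, 33586 and 29422 UMIs. Between 35 and 51 barcodes were shared by any 2 libraries, and no barcode was a Fcnb Camp cell in both.

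The markers named with the label were present. Chil3, a chitinase-like protein of granules that was not part of the rule, had a UMI in 196 of the 200 Control cells, in 200 of the 201 IR cells and in 225 of the 226 IR+CBD cells, at medians of 132.5, 126 and 93 UMIs per cell. B cells, which should lack these genes, were taken as kept cells with at least 5 UMIs of Cd79a and 3 of Cd79b (2334, 3033 and 2104 cells). Of these B cells 6, 5 and 7 were themselves Fcnb Camp cells and were not left out. A UMI of Fcnb was found in 2.27%, 1.45% and 1.66% of B cells and a UMI of Camp in 28.0%, 21.0% and 19.6%. A UMI of Chil3 was found in 6.90%, 5.41% and 5.32% of B cells, at median depths of 4865, 4060 and 3647 UMIs. Fcnb Camp cells held a median of 24, 22 and 21 UMIs of Fcnb and of 1012.5, 1026 and 876.5 UMIs of Camp. The Fcnb limit cut through a continuum: 27, 39 and 38 cells had 10 to 12 UMIs of Fcnb, and 38, 49 and 48 further cells with enough Camp had 7 to 9. Just under the Camp limit, 15, 14 and 24 cells with 10 or more Fcnb UMIs had 1 to 9 UMIs of Camp, and these had a median of 0 UMIs of Ltf and of 256, 269 and 234.5 UMIs of Elane.

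The genes with the most UMIs were those of the calprotectin subunits, which bind calcium and zinc. CPM values are not divided by transcript length and the end of the transcript that was read is not given in the sources used here, so an order of genes is one of UMIs and not of transcript levels. S100a9 stood at 132818, 152976 and 151562 CPM and S100a8 at 116006, 127505 and 133225 CPM. Camp followed at 37610, 46580 and 44257 CPM. Ngp, a cystatin-like protein of secondary granules, stood at 26862, 31716 and 29567 CPM. All 4 were among the 15 genes with the most UMIs. Compared with all other kept cells over the 3 libraries, Fcnb was 82-fold higher, Orm1, which encodes an acute phase glycoprotein, 36.4-fold, Chil3 27.3-fold, Camp 26.1-fold, Ngp 18.2-fold and Inhba, the beta-A subunit of activin and inhibin, 17.4-fold. Cpa6, a carboxypeptidase, and Mogat2, an acyltransferase of lipid synthesis, were 20.3-fold and 20.02-fold higher, and 145, 152 and 172 cells had a UMI of Cpa6. Of the 15 genes with the highest ratio, Cstdc5 alone had most of its UMIs in 3 cells of each library (75.1%, 97.3% and 67.9%), and its level is not read as one of the whole group.

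Fcnb Camp cells were set beside 3 other sets of cells of the lineage, each cut by UMI rules among cells not yet assigned: Elane cells (10 or more UMIs of Elane, 2090, 2234 and 2524 cells), Ltf Ly6g cells (10 or more of Ltf with Ly6g, 580, 730 and 803 cells) and Retnlg Cxcr2 cells (10 or more of Retnlg with Cxcr2, 430, 403 and 421 cells). No test accompanies these values, because the rules chose genes of the same program. Cebpe, which encodes C/EBP-epsilon, stood at 481, 520 and 491 CPM in Fcnb Camp cells, at 56.8, 55.1 and 78.6 CPM in Elane cells, at 209, 213 and 231 CPM in Ltf Ly6g cells and at 32.4, 32.2 and 32.5 CPM in Retnlg Cxcr2 cells. Its level was therefore highest in Fcnb Camp cells in each of the 3 libraries. Cebpa, the factor of earlier granulocyte progenitors, ran the other way, at 10.2, 10.1 and 8.74 CPM in Fcnb Camp cells and 52.3, 55.1 and 51.9 CPM in Elane cells. Ngp, at 26862, 31716 and 29567 CPM in Fcnb Camp cells, also stood high in Ltf Ly6g cells, at 26731, 26540 and 26125 CPM.

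Genes of later maturation are given beside the Ltf Ly6g cells. Ly6g, a surface antigen of mature mouse neutrophils, was required in that set and had no UMI in 68, 71 and 87 Fcnb Camp cells, so its higher level there is set in part by the rule. It stood at 168, 227 and 167 CPM in Fcnb Camp cells and at 578, 769.5 and 669.6 CPM in Ltf Ly6g cells. Retnlg, a resistin-like secreted protein, stood at 381, 322 and 487 CPM against 7198, 7196 and 8379 CPM. Mmp8, the neutrophil collagenase, was found in 12, 8 and 25 Fcnb Camp cells, and 3 cells held 71.7%, 90.0% and 38.9% of its UMIs. Its 17.7, 20.3 and 40.4 CPM therefore describe a few cells, where Ltf Ly6g cells had 831, 851 and 825 CPM. In the plot of 12 genes over the 4 sets, the levels of Elane, Fcnb, Camp, Ltf, Ly6g and Retnlg are set in part by the rules that cut the sets. Mpo, Chil3, Ngp, Mmp8, Mki67 and Top2a were used by no rule.

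**Figure D1:**
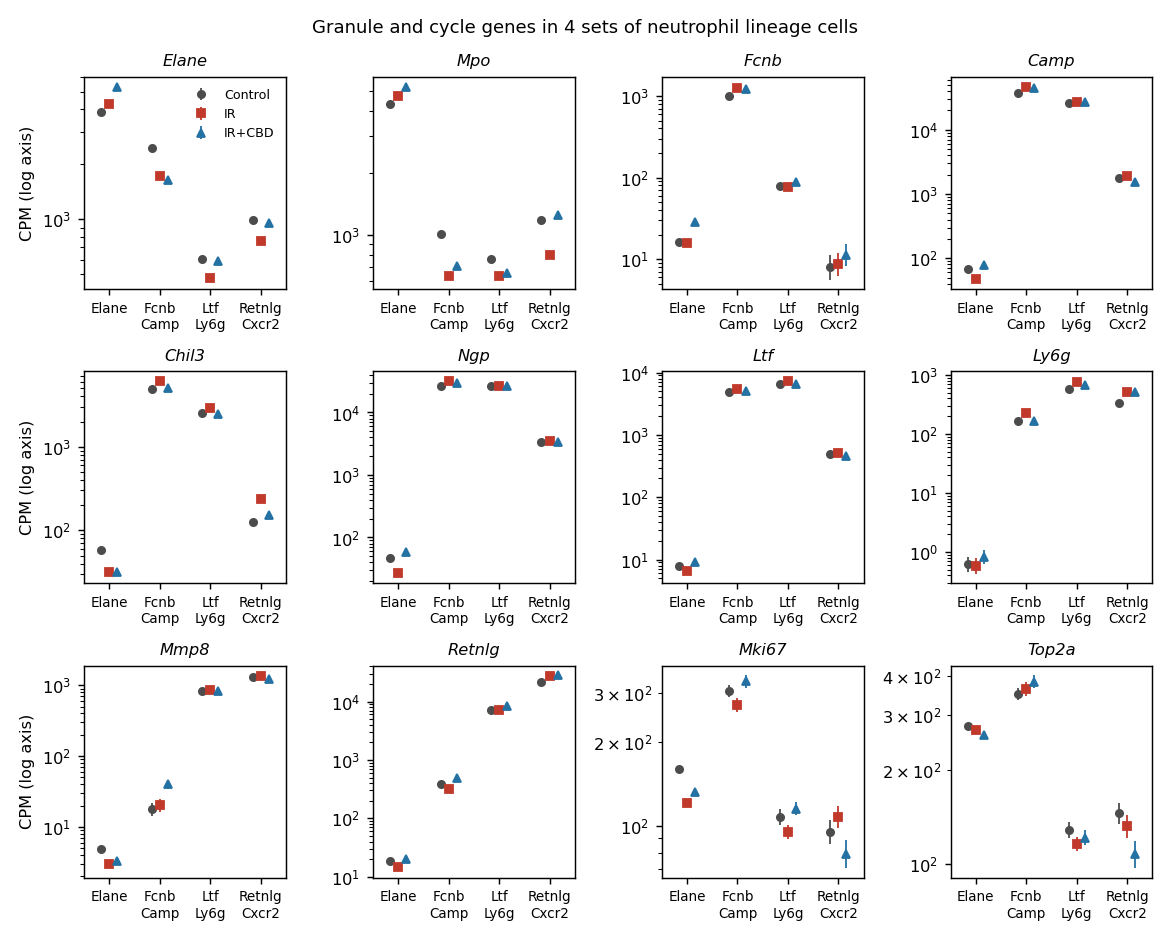
CPM (log axis) of 12 granule and cell cycle genes in Elane, Fcnb Camp, Ltf Ly6g and Retnlg Cxcr2 cells, with points for the summed cells of each library and bars for 95% Poisson intervals. The rules that cut the sets used Elane, Fcnb, Camp, Ltf, Ly6g and Retnlg. Among the other genes Mki67 and Top2a were highest in Fcnb Camp cells in all 3 libraries, and Ngp was higher there than in Ltf Ly6g cells.

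The 3 upstream sequences are printed because Fcnb chose the cells, Ngp and Ltf are secondary granule genes described here, and all 3 carry the letters TTGCNNAA, a core of the element bound by C/EBP factors, searched on both strands. They are the 250 bases before the annotated start, 5′ to 3′ on the gene's strand, from RefSeq for GRCm38.p6, whereas the submitters' processing notes name GRCm39 for the counts. Capitals mark the matches. Fcnb lies at chr2:28084879-28085128 on the minus strand, with matches at -235 to -228 and -123 to -116 relative to the start. Ngp lies at chr9:110419558-110419807 on the plus strand, with matches at -138 to -131 and -11 to -4. Ltf, the gene of lactoferrin, lies at chr9:111019042-111019291 on the plus strand, with a match at -75 to -68.
Fcnb: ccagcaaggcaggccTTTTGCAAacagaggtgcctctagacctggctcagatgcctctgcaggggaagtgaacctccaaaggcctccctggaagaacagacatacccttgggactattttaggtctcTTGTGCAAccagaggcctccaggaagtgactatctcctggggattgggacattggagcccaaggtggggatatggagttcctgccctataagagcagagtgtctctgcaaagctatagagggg
Ngp: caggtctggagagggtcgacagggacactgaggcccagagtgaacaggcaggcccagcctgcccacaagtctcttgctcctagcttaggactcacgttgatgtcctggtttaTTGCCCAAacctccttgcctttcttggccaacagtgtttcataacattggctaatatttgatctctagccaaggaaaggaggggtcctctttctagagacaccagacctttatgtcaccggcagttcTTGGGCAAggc
Ltf: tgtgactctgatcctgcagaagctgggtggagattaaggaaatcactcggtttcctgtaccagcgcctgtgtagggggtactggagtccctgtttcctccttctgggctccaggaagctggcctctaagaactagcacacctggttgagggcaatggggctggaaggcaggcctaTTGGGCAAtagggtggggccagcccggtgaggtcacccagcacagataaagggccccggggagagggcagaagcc
Of the 30 secondary granule genes, 24 had a promoter in the table and 8 of them (33.3%) held the letters, while 10.8% of all 27025 genes did. A match describes these letters and is no evidence of binding.

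Fcnb Camp cells were not uniform, and the marker that ordered them was Ltf, which is turned on late among the secondary granule genes. After each cell was thinned to 5000 UMIs, 521 of 626 cells (83.2%) held 5 or more UMIs of Ltf, 29 held 1 to 4 and 76 held none (12.1%). Only 1 IR cell, with 3812 UMIs, could not be thinned. The Ltf ranges refer to thinned cells throughout, and the 76 cells without Ltf held 65 Ltf UMIs in sum before thinning. All 76 held 10 or more UMIs of Elane before thinning, against 122 of the 521 cells with 5 or more Ltf UMIs. Elane, the neutrophil elastase of primary granules, stood at 10123 CPM in the cells without Ltf, 5207 CPM in those with 1 to 4 UMIs and 601 CPM in those with 5 or more. Mpo, myeloperoxidase, was ordered the same way, at 3881, 1434 and 311 CPM. In B cells Elane summed to 659, 506 and 580 CPM in the 3 libraries, with a median of 0 UMIs per cell. Those sums include 89, 88 and 64 B cells with 10 or more Elane UMIs, so they are not a clean background. How far the 601 CPM of the cells with 5 or more Ltf UMIs reflects RNA of other cells was not tested.

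Other granule genes were graded along the same axis. Ngp stood at 5993, 16390 and 33295 CPM from the cells without Ltf to those with 5 or more UMIs, and Lcn2, which encodes lipocalin-2, at 2005, 6202 and 16744 CPM. Camp was at 20925, 38677 and 45759 CPM, although it had helped to choose the cells. Cybb, the large subunit of the NADPH oxidase, was at 466, 924 and 1269 CPM, and Ly6g at 3.39, 25.4 and 222 CPM. Gfi1, a repressor needed for neutrophil development, ran against them at 61.6, 24.02 and 15.7 CPM. Cebpe was present in each range, at 469, 581 and 495 CPM. Fcnb, which the rule requires in every cell, was at 1321, 1608 and 1092 CPM.

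The libraries held similar mixtures of these ranges. Cells without Ltf made up 15% of the Control cells (10.4 to 20.7), 9.5% of the IR cells (5.82 to 14.4) and 11.9% of the IR+CBD cells (8.02 to 16.9). Cells with 5 or more UMIs made up 81.5% (75.4 to 86.6), 83.5% (77.6 to 88.4) and 84.5% (79.1 to 89.0). These intervals overlapped for every pair of libraries. The plot of Ltf against Elane shows a bend of cells in each library, from high Elane without Ltf to high Ltf with little or no Elane.

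**Figure D2:**
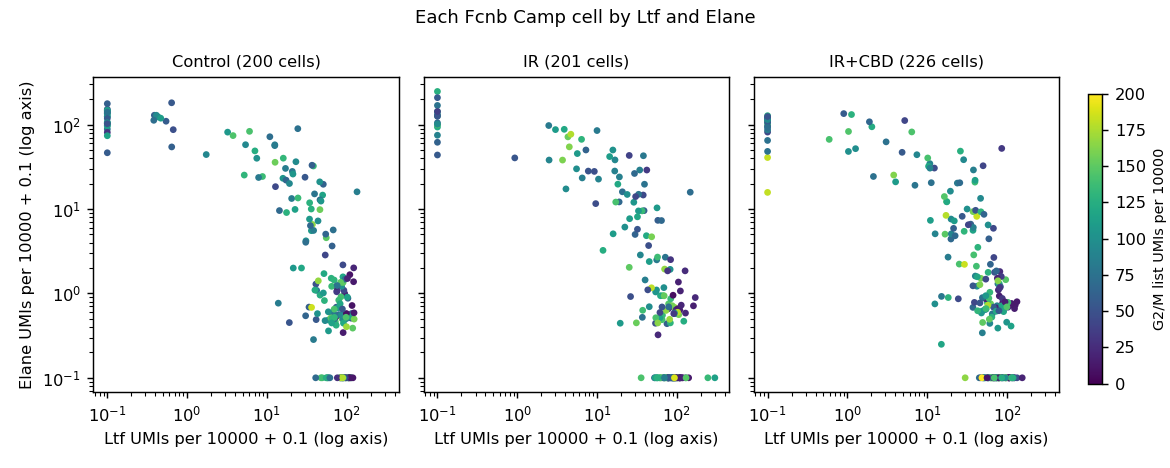
Ltf (x) and Elane (y) in each Fcnb Camp cell, in UMIs per 10000 UMIs of the cell with 0.1 added (log axes), for the 200 Control, 201 IR and 226 IR+CBD cells. Color gives the UMIs of the G2/M list per 10000, with the scale ending at 200, and cells without Ltf sit at the upper left, and cells rich in Ltf sit at the lower right.

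Cell cycle transcripts were found in most of the cells. After thinning to 5000 UMIs, Mki67, the Ki-67 antigen of dividing cells, had a UMI in 64.0% (56.9 to 70.6), 54.5% (47.3 to 61.5) and 62.8% (56.2 to 69.1) of the cells. Without thinning the shares were 91.0%, 84.6% and 87.6%. In the Ltf Ly6g cells the thinned shares were 17.6%, 15.3% and 17.4%, and in the Retnlg Cxcr2 cells 13.4%, 13.5% and 12.6%. Elane cells had 41.2%, 36.1% and 37.4%. Top2a, the topoisomerase of mitotic chromosomes, had a UMI in 65.0% (58.0 to 71.6), 57.5% (50.3 to 64.4) and 61.1% (54.4 to 67.5) of Fcnb Camp cells. Elane cells had similar shares of Top2a, 60.3% (58.1 to 62.4), 57.5% (55.4 to 59.5) and 54.7% (52.7 to 56.6), with overlapping intervals in each library. Ltf Ly6g cells had 19.2%, 14.6% and 17.4%. Among Fcnb Camp cells the intervals of the 3 libraries overlapped for both genes.

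The balance of phases differed between the neighboring sets. The 52 genes of the G2/M list summed to a median of 93.8, 87.9 and 92.1 UMIs per 10000 in Fcnb Camp cells, against 67.3, 59.1 and 61.6 in Elane cells and 20.3, 20.3 and 20.04 in Ltf Ly6g cells. The 42 genes of the S phase list gave 28.1, 24.3 and 24.7 in Fcnb Camp cells, 43.6, 41.8 and 37.8 in Elane cells and 3.32, 2.99 and 2.72 in Ltf Ly6g cells. As sums over the lists, G2/M transcripts were higher and S phase transcripts lower than in Elane cells in each library, but single genes did not all follow. Cdc20, an activator of mitotic exit, had a UMI in 25.5%, 26.5% and 27.4% of thinned Fcnb Camp cells and in 31.5%, 26.0% and 28.6% of Elane cells, and the mitotic kinase gene Cdk1 in 41.5%, 47.5% and 42.5% and in 46.8%, 45.9% and 42.8%. Mcm6, a subunit of the replicative helicase, was ordered as the S phase list, with a UMI in 34.5%, 27.0% and 30.1% of thinned Fcnb Camp cells and in 62.9%, 64.4% and 58.5% of Elane cells. Rrm2, the ribonucleotide reductase subunit of S phase, was in 61.5%, 52.5% and 51.3% of Fcnb Camp cells and in 58.7%, 54.1% and 51.8% of Elane cells.

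Within the Fcnb Camp cells the S phase list was graded along the Ltf axis, with a median of 40.2 UMIs per 10000 in the 76 cells without Ltf, 34.7 in the 29 with 1 to 4 UMIs and 21.9 in the 521 with 5 or more. The G2/M list had medians of 77.4, 106 and 91.8 over the same ranges. Mki67 was found in 42.1% (30.9 to 54.0) of thinned cells without Ltf and in 63.1% (58.8 to 67.3) of those with 5 or more UMIs, and Top2a in 65.8% and 59.5%. Between libraries, the median log2 ratio of the S phase list was -0.12 for IR over Control, -0.08 for IR+CBD over IR and -0.18 for IR+CBD over Control. The G2/M list gave -0.10, 0.11 and 0.03. Over all genes with at least 20 UMIs in the compared pair the median was -0.12, 0.02 and -0.09. For IR over Control the intervals of both lists held the median of all genes (S phase -0.17 to -0.07, G2/M -0.14 to -0.01). In both comparisons of the IR+CBD cells the S phase interval lay under that median and the G2/M interval above it. With IR as the reference the S phase interval was -0.13 to 0.0006 and the G2/M interval 0.05 to 0.13. With Control as the reference they were -0.22 to -0.14 and -0.04 to 0.07.

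With the limit of 10 raw UMIs, shares of the mix were close between libraries. Fcnb Camp cells were 1.87% of kept Control cells (1.62 to 2.15), 1.94% of IR cells (1.69 to 2.23) and 2.20% of IR+CBD cells (1.93 to 2.50). Shares in IR over those in Control gave a ratio of 1.04 (0.848 to 1.27), IR+CBD over IR gave 1.13 (0.932 to 1.38), and IR+CBD over Control gave 1.17 (0.966 to 1.43), so each interval included 1. The limit of 10 raw UMIs favors deep cells, and the depth of these cells differed between libraries. When all cells were first thinned to 5000 UMIs and 3 UMIs of each gene were asked for, the shares were 2.32% (2.002 to 2.68), 2.81% (2.44 to 3.22) and 3.41% (3.003 to 3.84), without 2798, 3017 and 2902 shallower cells. Under that rule the Control and IR+CBD intervals did not overlap, and the ratio of IR+CBD over Control was 1.47 (1.21 to 1.78). Among the 4 sets of the lineage, Fcnb Camp cells made up 6.06%, 5.63% and 5.69%. The sort and the remixing set the denominator of each of these shares.

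Between libraries, counts per gene were summed over the Fcnb Camp cells, and a gene was counted as past the fold when its CPM ratio was at least 1.5 in either direction. Among 8551 genes with at least 50 UMIs in the Control and IR cells, 2.44% were past the fold higher in IR and 7.29% lower. For IR+CBD over IR the shares were 3.44% higher and 2.44% lower of 8205 genes, and for IR+CBD over Control 2.17% and 6.58% of 8606. In counts, 209 genes were higher and 623 lower in IR than in Control, and without the cells that carried defining genes of another cell type the lower genes were 279. With the ratios scaled by their median over genes, 320 were higher and 396 lower. For IR+CBD over Control the lower genes were 566, and 296 without those cells. Lists used genes with at least 20 UMIs, of which 4.23% were past the fold higher and 10.5% lower for IR over Control, 6.60% and 5.01% for IR+CBD over IR, and 4.36% and 9.53% for IR+CBD over Control. IR over Control and IR+CBD over IR share the IR library, so a value particular to that library enters both.

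Interferon response genes were higher in the IR cells than in both other libraries. Type I interferons induce antiviral effectors such as the oligoadenylate synthetases and ISG15, a ubiquitin-like modifier. Of 81 genes on the list, 58 could be measured for IR over Control, and 44 of these were past the fold higher (4.23% of all genes were) and 1 lower, with a median log2 ratio of 1.13 (0.81 to 1.58). For IR+CBD over IR, 43 of 58 were past the fold lower and 0 higher, with a median of -1.15 (-1.58 to -0.81). Over all genes 5.01% were lower and 6.60% higher in that comparison. For IR+CBD over Control, 6 of 49 were higher and 7 lower, with a median of -0.10 (-0.25 to 0.18). Over all genes 4.36% were higher and 9.53% lower there, with a median of -0.09. The list thus stood apart in the IR library, and its median for IR+CBD over Control lay near that of all genes.

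Rtp4, a chaperone of receptor trafficking induced by interferon, had 5, 148 and 11 UMIs in 4, 77 and 8 cells, or 0.896, 33.3 and 2.40 CPM. In IR it was 37.2-fold the Control level (15.6 to 116), and in IR+CBD it was 0.0722 of the IR level (0.0353 to 0.133). Isg15 was at 2.87, 33.3 and 4.59 CPM, with a UMI in 15, 65 and 14 cells, and its ratios were 11.6 (6.92 to 20.9) and 0.138 (0.0828 to 0.218). More cells of the IR library carried these transcripts, and the 3 richest IR cells had 10.8% of the Rtp4 UMIs and 34.5% of the Isg15 UMIs. The oligoadenylate synthetase genes Oas2 and Oas1g were at 3.05, 22.3 and 1.31 CPM and at 0.538, 10.6 and 0.437 CPM, with a UMI in 68 and 45 IR cells and in 6 and 1 IR+CBD cells. Oasl2, a related gene, was at 1.08, 16.0 and 0.219 CPM. Since Oas1g has close paralogs, its reads may be shared among them.

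Ifit1, an RNA-binding effector, had no UMI in the Control cells, 59 UMIs in the IR cells and 3 in the IR+CBD cells. Against a floor of 3 counts over the Control cells it was at least 24.7-fold higher in IR, but 3 of its 16 IR cells held 72.9% of the UMIs. Bst2, or tetherin, which holds budding virus at the membrane, was at 29.6, 62.1 and 17.9 CPM, with ratios of 2.10 (1.73 to 2.56) and 0.289 (0.223 to 0.370). Abundant members had smaller ratios. Slfn2, a schlafen family regulator, was at 198, 256 and 209 CPM and Ly6e at 129, 138 and 79.4 CPM. Ifitm3, a membrane protein that blocks viral entry, has close copies and stands on the late neutrophil list and not on the interferon list. It was at 867, 1225 and 679 CPM, or 1.41-fold (1.36 to 1.47) and 0.554-fold (0.530 to 0.579). The plot of the list's genes shows the IR value to the right of both others in most rows.

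**Figure D3:**
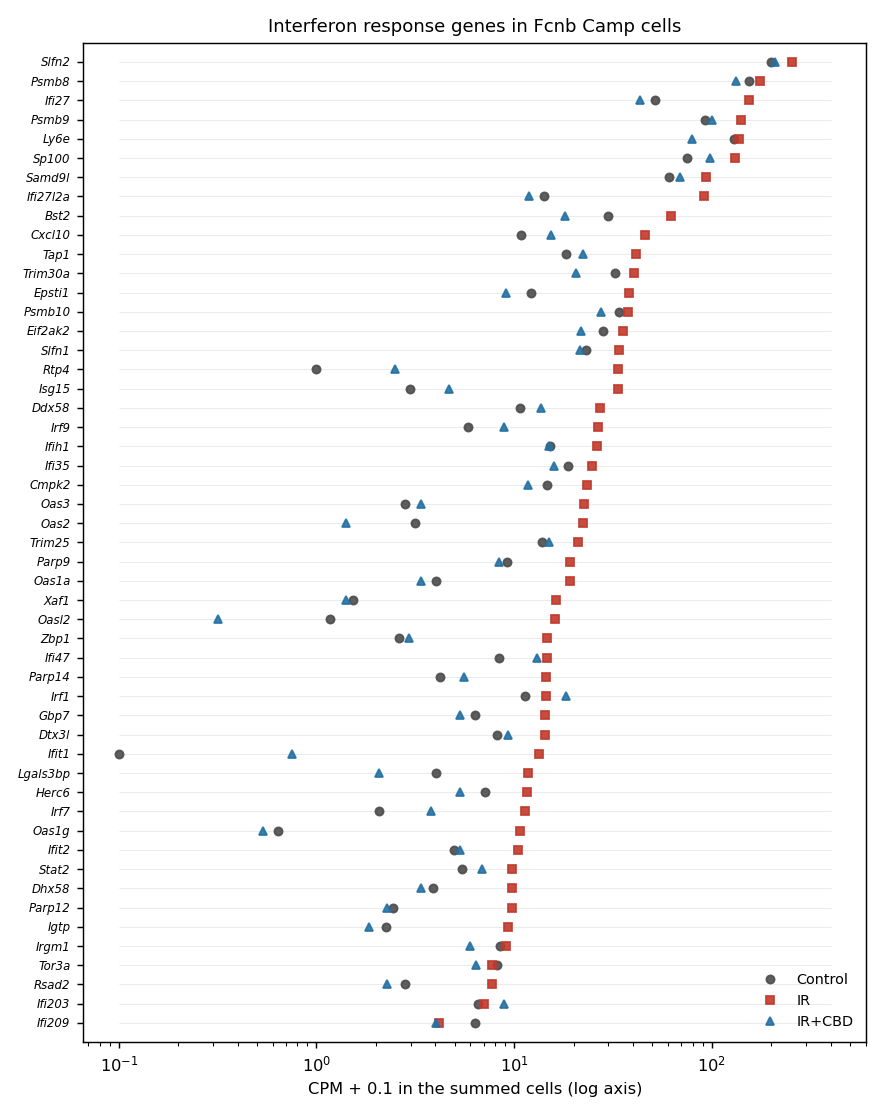
CPM plus 0.1 (log axis) of interferon response genes (1 left out) with 50 or more UMIs in the summed Fcnb Camp cells of the 3 libraries, ordered by the IR value, with 1 point per library and no replicates. Rtp4 stood at 33.3 CPM in IR and 0.896 in Control, and Ifit1 is drawn at the left edge for Control because it had 0 UMIs.

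The difference was spread over the cells. The interferon list summed to a median of 10.5 UMIs per 10000 in Control cells (lowest 2.57, highest 38.4), 19.1 in IR cells (5.68 to 212) and 10.1 in IR+CBD cells (1.58 to 38.5). The upper quartile of the Control cells, 13.8, lay under the lower quartile of the IR cells, 14.2, although the ranges overlapped. A pair of IR cells, at 199.7 and 212, stood far above the next IR cell at 65.2. Without the 3 richest cells of each gene and library the list medians were 1.01 and -1.05. Among cells with 5 or more Ltf UMIs the medians were 1.22 and -1.28, with 45 of 58 genes past the fold higher for IR over Control and 42 of 57 lower for IR+CBD over IR. In the cells without Ltf, 30, 19 and 27 per library, fewer genes could be measured and the medians were 0.61 and -0.16.

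**Figure D4:**
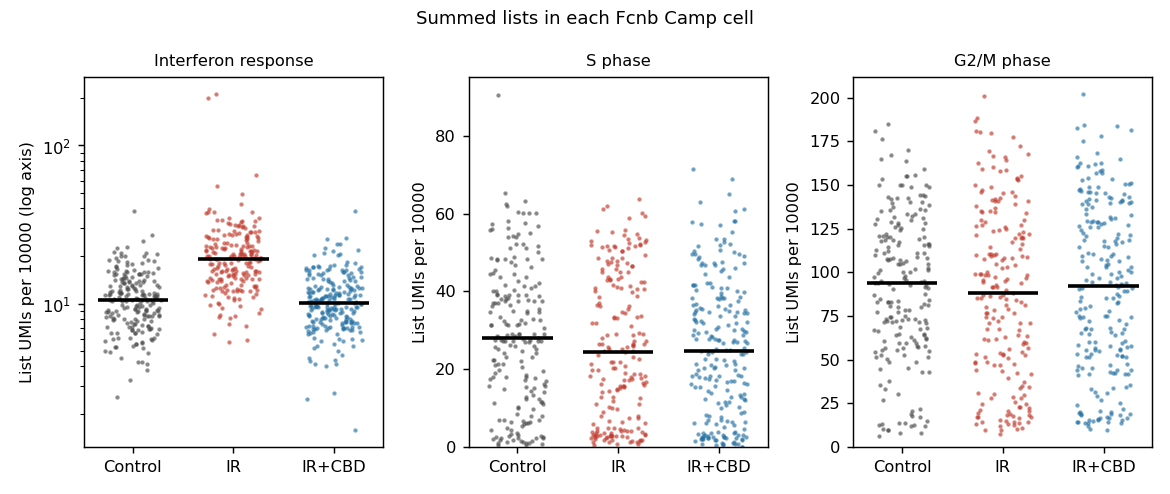
UMIs per 10000 of the interferon response list (log axis), the S phase list and the G2/M list in each Fcnb Camp cell by library, with 1 point per cell (cells are not replicates of a condition) and a line at the median. The interferon medians were 10.5, 19.1 and 10.1, while the S phase medians (28.1, 24.3 and 24.7) and G2/M medians (93.8, 87.9 and 92.1) lay close together.

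The same list gave similar medians in the neighboring sets. For IR over Control they were 1.16 in Elane cells, 1.31 in Ltf Ly6g cells and 1.14 in Retnlg Cxcr2 cells, and for IR+CBD over IR -1.11, -1.13 and -1.01. Whether the sets differ in it was not tested. Levels differed between the sets: Isg15 stood at 2.87, 33.3 and 4.59 CPM in Fcnb Camp cells and at 53.2, 250.5 and 73.5 CPM in Retnlg Cxcr2 cells. Rtp4 stood at 33.3 CPM in IR Fcnb Camp cells, 14.96 CPM in IR Elane cells and 200.4 CPM in IR Retnlg Cxcr2 cells. The part of free RNA from other cells in these values was not tested.

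The promoters of Isg15, Oas1g and Bst2 are shown because these interferon genes were past the fold higher in IR and hold the letters GAAA, any 2 bases and GAAA again, a core of the interferon-stimulated response element, searched on both strands with overlapping matches joined in capitals. They are again 250 bases from RefSeq for GRCm38.p6, 5′ to 3′ on the gene's strand. Isg15 lies at chr4:156200819-156201068 on the minus strand, with matches at -78 to -69, -72 to -63 and -66 to -57. Oas1g lies at chr5:120887614-120887863 on the minus strand, with matches at -18 to -9 and -12 to -3. Bst2 lies at chr8:71537473-71537722 on the minus strand, with matches at -130 to -121 and -124 to -115.
Isg15: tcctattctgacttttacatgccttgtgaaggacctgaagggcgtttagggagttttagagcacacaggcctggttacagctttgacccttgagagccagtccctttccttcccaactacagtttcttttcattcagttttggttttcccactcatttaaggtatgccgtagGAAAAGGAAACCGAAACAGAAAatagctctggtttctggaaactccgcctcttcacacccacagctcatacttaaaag
Oas1g: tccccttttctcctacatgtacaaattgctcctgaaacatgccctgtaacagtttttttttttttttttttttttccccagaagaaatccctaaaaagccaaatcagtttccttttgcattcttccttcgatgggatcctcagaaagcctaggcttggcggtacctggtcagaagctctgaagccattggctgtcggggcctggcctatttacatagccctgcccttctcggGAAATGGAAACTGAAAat
Bst2: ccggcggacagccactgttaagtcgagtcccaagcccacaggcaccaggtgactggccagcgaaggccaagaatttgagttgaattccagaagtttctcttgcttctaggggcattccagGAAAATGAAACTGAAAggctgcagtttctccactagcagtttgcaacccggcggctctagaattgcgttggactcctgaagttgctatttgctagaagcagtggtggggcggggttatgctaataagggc
Among the 58 measured interferon genes 45 had a promoter in the table, and 17 of these (37.8%) held the letters, against 3.46% of all 27025 genes. Of the 44 genes past the fold higher 33 had a promoter and 13 (39.4%) held them.

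MHC class I genes, which present peptides from inside the cell and are induced by interferon, followed the same pattern with smaller ratios. Of 23 measured genes, 13 were past the fold higher and 1 lower for IR over Control (median log2 ratio 0.67, 0.16 to 0.86), and 0 higher and 10 lower for IR+CBD over IR (median -0.49, -0.87 to -0.26). The shares over all genes were 4.23% higher and 10.5% lower in the former comparison, and 6.60% and 5.01% in the latter. B2m, the invariant light chain, was at 527, 957 and 694 CPM, or 1.82-fold (1.73 to 1.90) and 0.725-fold (0.692 to 0.759). The heavy chains H2-K1 and H2-D1 were at 186, 401 and 234 CPM and at 400.5, 714 and 479 CPM. H2-Q7 and H2-Q6, close copies of each other whose reads may be shared, were at 8.25, 56.1 and 15.5 CPM and at 2.87, 16.9 and 3.93 CPM. Psmb9, a subunit of the immunoproteasome that also stands on the interferon list, was at 92.7, 140 and 99.7 CPM. The gene past the fold lower was Calr, the chaperone calreticulin, at 308, 186 and 170 CPM, with an IR over Control ratio of 0.604 that was 0.667 without the cells that carried defining genes of another cell type. Pdia3, a further chaperone of peptide loading, was at 285, 199 and 179 CPM.

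Secondary granule genes were also compared between libraries. Of 26 measured genes other than Fcnb and Camp, 1 was past the fold higher and 1 lower for IR over Control (median 0.14, 0.04 to 0.19), and 1 higher and 1 lower for IR+CBD over IR (median -0.10, -0.16 to 0.01). Of all genes 4.23% were higher and 10.5% lower in the former comparison, and 6.60% and 5.01% in the latter. The median of all genes was -0.12 in the former, under the list's interval, and 0.02 in the latter, above it. The higher gene for IR over Control was B2m, which the list holds because granules store it, and the lower was Ceacam10, an adhesion protein, at 42.5, 27.2 and 24.3 CPM. Ltf was at 4918, 5501 and 5059 CPM, Ngp at 26862, 31716 and 29567 CPM and Lcn2 at 13693, 15565 and 14294 CPM. Chil3 was at 4898, 6048 and 5112 CPM. Each of these was highest in the IR cells, by ratios between 1.12 and 1.23 over Control.

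Among primary granule genes the serine proteases and Mpo had lower levels in both irradiated groups, and Lyz2 a higher one. Of 18 measured genes, 2 were past the fold higher and 4 lower for IR over Control (median -0.28, -0.53 to 0.01), and 1 and 3 for IR+CBD over Control (median -0.18, -0.52 to 0.15). Of all genes 4.23% were higher and 10.5% lower in the former comparison, and 4.36% and 9.53% in the latter. The medians of all genes, -0.12 and -0.09, lay within the list's intervals. Elane was at 2449, 1732 and 1646 CPM, 0.707 of the Control level in IR (0.688 to 0.727) and 0.9504 of the IR level in IR+CBD (0.921 to 0.981). Prtn3, proteinase 3, was at 3045, 2112 and 2138 CPM, Mpo at 1009, 629 and 705 CPM and Ctsg, cathepsin G, at 786, 452 and 446 CPM. Ctsc, the protease that activates these granule proteases, was at 29.8, 13.3 and 6.12 CPM, and its IR over Control ratio of 0.446 became 0.750 without the cells that carried defining genes of another cell type. Lyz2, a lysozyme, was at 6164, 10028 and 8776 CPM, 1.63-fold (1.60 to 1.65) higher in IR than in Control. Cells without Ltf, which are rich in Elane, made up 15%, 9.5% and 11.9% of the libraries, with overlapping intervals, and their part in these ratios was not tested beyond the following values. With the Ltf ranges weighted as in Control, the IR over Control ratio was 0.819 for Elane, 0.705 for Mpo and 0.671 for Ctsg.

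Immediate early genes, which respond within minutes to signals and to cell handling, had a lower list median in IR than in Control and a higher one in IR+CBD than in IR. For IR over Control 0 of 31 measured genes were past the fold higher and 6 lower (median -0.24, -0.40 to -0.16), and for IR+CBD over IR 5 were higher and 0 lower (median 0.36, 0.12 to 0.41). Of all genes 4.23% were higher and 10.5% lower in the former comparison (median -0.12), and 6.60% and 5.01% in the latter (median 0.02). Jun, a subunit of the AP-1 factor, was at 241, 272 and 404 CPM, and its IR+CBD level was 1.48-fold the IR level (1.38 to 1.60). Rhob, a small GTPase, was at 45.2, 51.8 and 86.1 CPM, or 1.66-fold (1.41 to 1.97), and Btg2, an antiproliferative gene and p53 target, at 71.2, 61.2 and 92.9 CPM, or 1.52-fold (1.30 to 1.77). Jun, Rhob and Btg2 were all highest in the IR+CBD cells. Without the cells that carry markers of other cell types the list median for IR over Control was 0.01, and so the negative median depended on those cells.

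Genes of cell death and of the p53 response had list medians whose intervals included 0 for IR over Control and for IR+CBD over IR. Of 12 measured genes of the BCL2 family 1 was past the fold higher and 3 lower for IR over Control, and of 11 for IR+CBD over IR 2 were higher and 1 lower, with medians of -0.29 (-0.70 to 0.10) and 0.16 (-0.29 to 0.71). Bcl2l11, which encodes the death activator BIM, was at 29.8, 18.2 and 43.1 CPM with a UMI in 78, 52 and 91 cells. Set against Control, IR gave a ratio of 0.613 (0.464 to 0.804), and set against IR, IR+CBD gave 2.36 (1.81 to 3.10). Pmaip1, or NOXA, was at 5.56, 11.7 and 13.1 CPM, and Bax at 72.1, 52.9 and 43.3 CPM. On the p53 list 1 of 32 measured genes was higher and 4 lower for IR over Control, and 4 of 31 were higher and 2 lower for IR+CBD over IR. Their medians were -0.16 (-0.28 to 0.09) and 0.04 (-0.13 to 0.25), and of all genes 4.23% were higher and 10.5% lower in the former comparison and 6.60% and 5.01% in the latter. Xrcc5, the Ku80 subunit of DNA end joining, which is on neither list, was at 12.7, 2.70 and 7.43 CPM with a UMI in 49, 10 and 27 cells. The IR level was 0.212 of the Control level (0.105 to 0.394), and the IR+CBD level was 2.75-fold the IR level (1.39 to 5.84).

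Ribosomal protein and oxidative phosphorylation lists had medians under that of all genes in both irradiated groups. The 81 measured genes of cytosolic ribosomal proteins had a median log2 ratio of -0.34 (-0.37 to -0.30) for IR over Control, 0 of them past the fold higher and 3 lower, and -0.29 (-0.31 to -0.25) for IR+CBD over Control. Their summed level was 100192, 79544 and 82341 CPM. Rpl10, a protein of the large subunit, was at 1094, 702 and 754 CPM. Oxidative phosphorylation, with 76 measured genes, gave -0.22 (-0.26 to -0.17) and -0.23 (-0.26 to -0.19). Past the fold, 0 of these genes were higher or lower in the former, and 0 were higher and 1 lower in the latter. The shares over all genes were 4.23% higher and 10.5% lower for IR over Control, and 4.36% and 9.53% for IR+CBD over Control. The 31 antioxidant genes had medians of -0.15 (-0.36 to -0.09) and -0.23 (-0.38 to -0.09), and the former interval held the median of all genes, -0.12. Of them 0 were past the fold higher and 4 lower for IR over Control, where 10.5% of all genes were lower, and 0 and 6 for IR+CBD over Control, where 9.53% were. Prdx1 and Prdx4, which reduce peroxides, were at 164, 91.2 and 106 CPM and at 23.8, 7.65 and 8.74 CPM, and Gclm, the modifier subunit of glutathione synthesis, at 114, 88.7 and 74.1 CPM. Without the cells that carried defining genes of another cell type, the IR over Control ratio of Prdx1 was 0.704 in place of 0.555 and that of Prdx4 was 0.544 in place of 0.321. Between IR+CBD and IR the medians of these 3 lists were 0.05, -0.02 and 0.00.

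**Figure D5:**
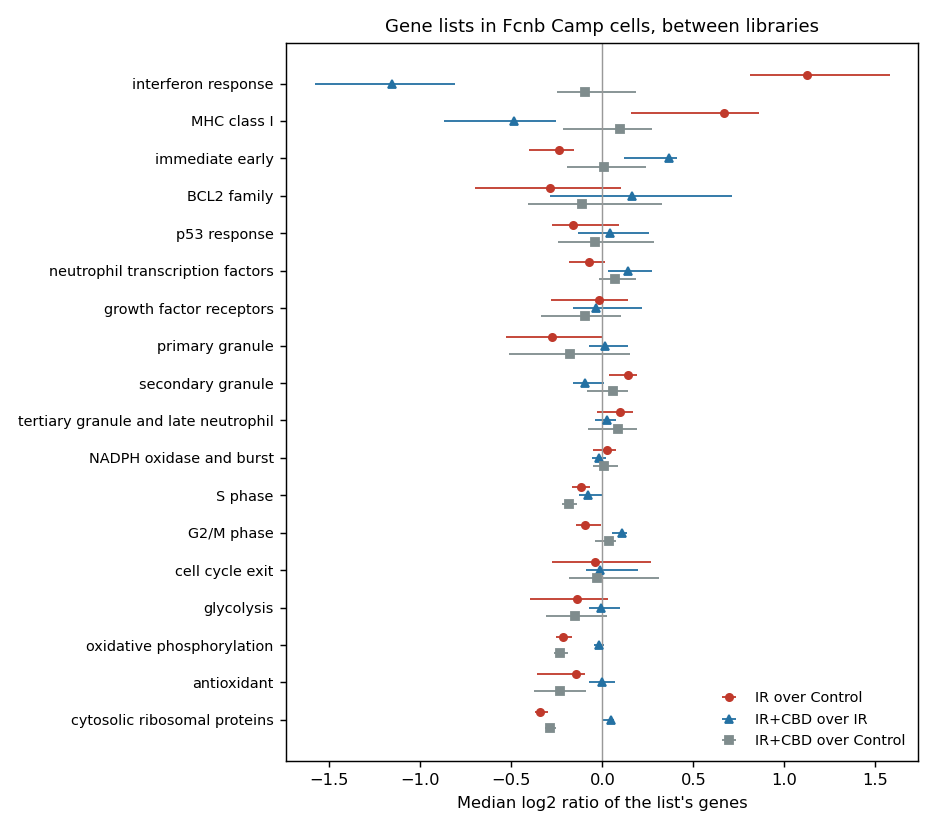
Median log2 ratio of CPM for 18 gene lists in Fcnb Camp cells (x) for the 3 comparisons, with bars for the 95% interval of the median over the genes of a list, where IR over Control and IR+CBD over IR share the IR library. Interferon response stood at 1.13 and -1.15 and MHC class I at 0.67 and -0.49, while S phase, G2/M and granule lists lay between -0.28 and 0.14 for these 2 comparisons.

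The plot of list medians places the 18 lists named on its axis side by side and leaves out the stefin A family and the markers of other cell types. Neutrophil transcription factors had a median of -0.07 for IR over Control and 0.14 for IR+CBD over IR, growth factor receptors -0.02 and -0.04, NADPH oxidase genes 0.03 and -0.02 and glycolysis -0.14 and -0.01. Spi1, which encodes PU.1, was at 339, 334 and 324 CPM. Among 14 measured genes of the Atf2 and Lrp6 axis that the study examined in stem cells, the median was -0.29 (-0.46 to 0.02) for IR over Control, with 10 below 0, and 0.21 (0.01 to 0.34) for IR+CBD over IR, with 12 above 0. Past the fold, 0 were higher and 1 lower in the former and 0 in either direction in the latter. The shares over all genes were 4.23% higher and 10.5% lower in the former, and 6.60% and 5.01% in the latter. All-gene medians, -0.12 and 0.02, lay within the list's intervals. In the former 6962 of all 10642 genes were below 0, and in the latter 5529 of 10317 were above 0. The authors picked that axis from these libraries, so it is not an independent list.

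Across all genes tested, those with the most extreme ratio bounds were often held by few cells. Of the 10 highest and 10 lowest genes for IR over Control, 6 and 8 had most of their UMIs in 3 cells of a library, and for IR+CBD over IR it was 6 and 7. Hemoglobin Hbb-bs had 194, 3110 and 2224 UMIs in 10, 24 and 34 cells, and erythroid markers summed to 431, 1413 and 1137 CPM with 118, 93 and 136 cells at 0. The basophil protease gene Mcpt8 had 114, 223 and 9 UMIs in 20, 14 and 5 cells. Ccr2, a monocyte receptor, had 92, 5 and 20 UMIs in 17, 4 and 8 cells, and monocyte markers were past the fold lower for 10 of 13 genes in IR over Control (median -1.99), while their summed level was 1126, 1126 and 985 CPM. Without the cells that carried defining genes of another cell type that median was 0.21. The stefin A family, near-identical protease inhibitors whose reads may be shared, had list medians of 2.16 for IR over Control and -2.17 for IR+CBD over IR, and of 0.16 and 0.56 without the 3 richest cells of each gene and library. Cstdc4, its gene with the highest IR over Control ratio, had 6, 661 and 44 UMIs in 5, 7 and 12 cells. Medians over markers of other cell types were also far from 0, at 1.37 and -3.06 for MHC class II genes and at 1.05 and -3.56 for basophil and mast cell genes, and they were -0.19 and -0.42 and -0.061 and -1.70 without the 3 richest cells of each gene and library. Hbb-bs, Mcpt8, Ccr2 and Cstdc4 describe a few cells of each library and not the Fcnb Camp cells at large.

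Further named genes differed in how many cells carried them. Il1r2, a decoy receptor for interleukin-1, was at 136, 87.8 and 89.4 CPM with a UMI in 163, 138 and 153 cells. Olr1, a scavenger receptor for oxidized lipoprotein, was at 41.1, 61.9 and 90.7 CPM in 106, 110 and 141 cells, 2.21-fold (1.88 to 2.61) higher in IR+CBD than in Control. Atp2b4, a calcium pump of the plasma membrane, was at 11.5, 3.83 and 13.3 CPM in 30, 13 and 21 cells. Nrg1, a ligand of ERBB receptors, had 47, 9 and 5 UMIs in 24, 8 and 5 cells, and its IR over Control ratio of 0.240 became 0.436 without the cells that carried defining genes of another cell type. Slc15a2, a peptide transporter, had 17, 4 and 27 UMIs in 11, 3 and 17 cells. Of these, Olr1 and Il1r2 were found in over 100 cells of every library.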

How the data were processed

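The authors made the deposited files, whole-number UMI counts per gene and barcode, with Cell Ranger. The matrix header gives version 7.0.1, whereas the submitters' processing notes give 4.0 with GRCm39. Cells with at least 200 genes and at most 5% mitochondrial UMIs were kept. The members and lists were chosen with earlier results of these data known. UMIs were summed over the Fcnb Camp cells of each library to CPM. Ratios between libraries used genes with at least 50 UMIs in both libraries together. List medians used log2 ratios with 0.5 added and at least 20 UMIs, with order-statistic intervals. Shares were thinned to 5000 UMIs per cell. No test was made between groups, since each is 1 library. Scripts were tested on simulated data.

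Named genes were the rule and marker genes, the 15 highest by CPM and the 15 highest over other kept cells, the 10 highest and 10 lowest per comparison by the ratio bound nearest to 1, and, per list, the 4 with most UMIs and the 2 highest and 2 lowest ratios. Cebpa, Gfi1, Ly6g, Cdc20 and Cdk1 fall outside it and were chosen after their values were seen. Doublets were predicted with Scrublet, in scanpy 1.11.5, and kept, where the study used DoubletFinder. Removing them, cells with markers of another cell type, or the 3 richest cells per gene were alternatives, the last 2 chosen after seeing the data. Python 3.11.15, numpy 2.4.6, scipy 1.17.1, pandas 2.3.3 and matplotlib 3.10.9 were used. The values of 1 gene of the interferon list are not reported here.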

Additional observations from a re-analysis of the deposited data

How the results depend on the processing

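The list medians of interferon response and MHC class I kept their direction for IR over Control and for IR+CBD over IR under every alternative. Weighted by the Control Ltf ranges, interferon response gave 1.12 and -1.09. Without the cells with markers of another cell type it gave 1.36 and -1.13. The cause of the changes that follow was not tested.

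With 5 UMIs of each gene as the rule, the G2/M median for IR over Control was -0.21, the medians for IR+CBD over IR were 0.011 (S phase), 0.19 (primary granule) and -0.17 (secondary granule), 368 genes were lower for IR+CBD over Control, and Top2a was in 48.8% of IR cells. With 20 UMIs the S phase median for IR over Control was -0.042, those for IR+CBD over IR were 0.15 (G2/M) and -0.013 (ribosomal), 182 genes were higher for IR+CBD over IR, and Top2a was in 69.6% of IR+CBD cells. Without predicted doublets, 388 genes were lower for IR over Control and 316 for IR+CBD over Control, and the IR over Control medians were 0.31 (stefin A), -0.018 (immediate early) and 0.18 (monocyte markers), with stefin A at -0.53 for IR+CBD over IR. Without the cells with markers of another cell type, 279 genes were lower for IR over Control and 296 for IR+CBD over Control, and the IR over Control medians were 0.0064 (immediate early) and 0.21 (monocyte markers). Without the 3 richest cells per gene, stefin A gave 0.16 for IR over Control and 0.56 for IR+CBD over IR.

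Scaled by the median ratio, 320 genes were higher and 396 lower for IR over Control, 288 were higher for IR+CBD over Control, and the IR over Control medians were -0.0098 (S phase), 0.0104 (G2/M), 0.25 (secondary granule) and -0.13 (immediate early). With the mean of each cell's CPM the S phase median for IR+CBD over IR was 0.014. With no minimum of UMIs, 3403 genes were higher and 5281 lower for IR over Control, 4573 and 3793 for IR+CBD over IR, and 3651 and 4931 for IR+CBD over Control. With at least 200 UMIs these were 54 and 162, 45 and 33, and 31 and 171. The share ratio of IR+CBD over Control was 0.938 among lineage cells and 1.47 under the thinned rule. Thinned to 2000 UMIs, Mki67 was in 37%, 33.8% and 42.0% of cells, Top2a in 43%, 37.8% and 40.3%, and 5 or more Ltf UMIs in 67%, 75.6% and 71.2%. Without thinning, Mki67 was in 91%, 84.6% and 87.6% and Top2a in 82.5%, 76.1% and 77.0%. No paired analysis was possible because each group is 1 library.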
